A study of Mus musculus with 36 samples.

Results

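The genes described here encode collagens, basement membrane proteins, matrix glycoproteins and proteoglycans, matrix-remodelling enzymes and their inhibitors, and proteins used to recognise hepatic stellate cells and related mesenchymal cells. They were chosen by name from a list of 42 symbols, and 41 of these (every one except Col6a3, which was not analysed here) were among the 21889 symbols of the deposited table. The mRNA was measured by RNA-Seq in livers of 36 male C57BL/6 mice (bred, per the study's methods, from C57BL/6J parents), 3 at each of 12 ages. Day -2 was a fetal age, Day 0 livers were taken at birth before suckling had begun, and the other ages were Days 1, 3 and 5, Days 10, 15 and 20, and Days 25, 30, 45 and 60. No mouse carried a genetic change or received a treatment, mice came from several litters, and those used after weaning were weaned at Day 21. Values are in FPKM, sequenced fragments divided by exon length and by the number mapped in the library, so that levels can be set side by side between genes.

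The extracellular matrix of the liver holds fibrillar collagens around portal tracts and central veins, and a loose basement membrane-like matrix along the sinusoids. Hepatic stellate cells lie between the sinusoidal endothelium and the hepatocytes, store vitamin A, and produce much of this matrix together with portal fibroblasts and smooth muscle cells. In the adult organ the matrix turns over slowly, whereas a growing liver has to lay down vessels, ducts and capsule. All values come from whole liver, in which fewer cells of a type and less RNA per cell cannot be told apart.

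Almost all of the 41 genes were most highly expressed between birth and Day 15 and lowest in young adults. The highest age mean lay between Day 0 and Day 15 for 37 of the 41, against 42.3% of the 11149 genes tested (those whose mean reached 1 FPKM at some age). Day 10 alone held the highest mean of 15 genes, among them Col1a1, Col1a2, Col3a1, Col5a1, Eln, Fbn1, Bgn, Mmp2, Pdgfrb and Reln, whereas it held the highest mean of 2.96% of all tested genes. Another 11 were highest at Day 1, against 10.9% of all tested genes, including Col4a1, Col4a2, Sparc, Postn, Dcn, Timp3, Pdgfra and Vim. After each library was divided by the 75th percentile of its tested genes (upper quartile scaling), 27 genes were highest at Day 10, against 7.91% of all tested genes. Under that scaling 7 were highest at Day 1, against 8.08%. The lowest age mean was at Day 30, 45 or 60 for 36 genes, and at Day -2 for 4 (Col15a1, Col18a1, Fn1 and Ecm1). For these counts, and for the median ratio that follows, the value over all tested genes is not given. The median gene was 5.19-fold higher at its highest age than at Day 60, and for 39 of 41 genes all 3 mice of the highest age lay above all 3 mice of Day 60, as they did for 76.1% of all tested genes. These ages were read from the values themselves, so the last count is a description with no test.

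**Figure D1:**
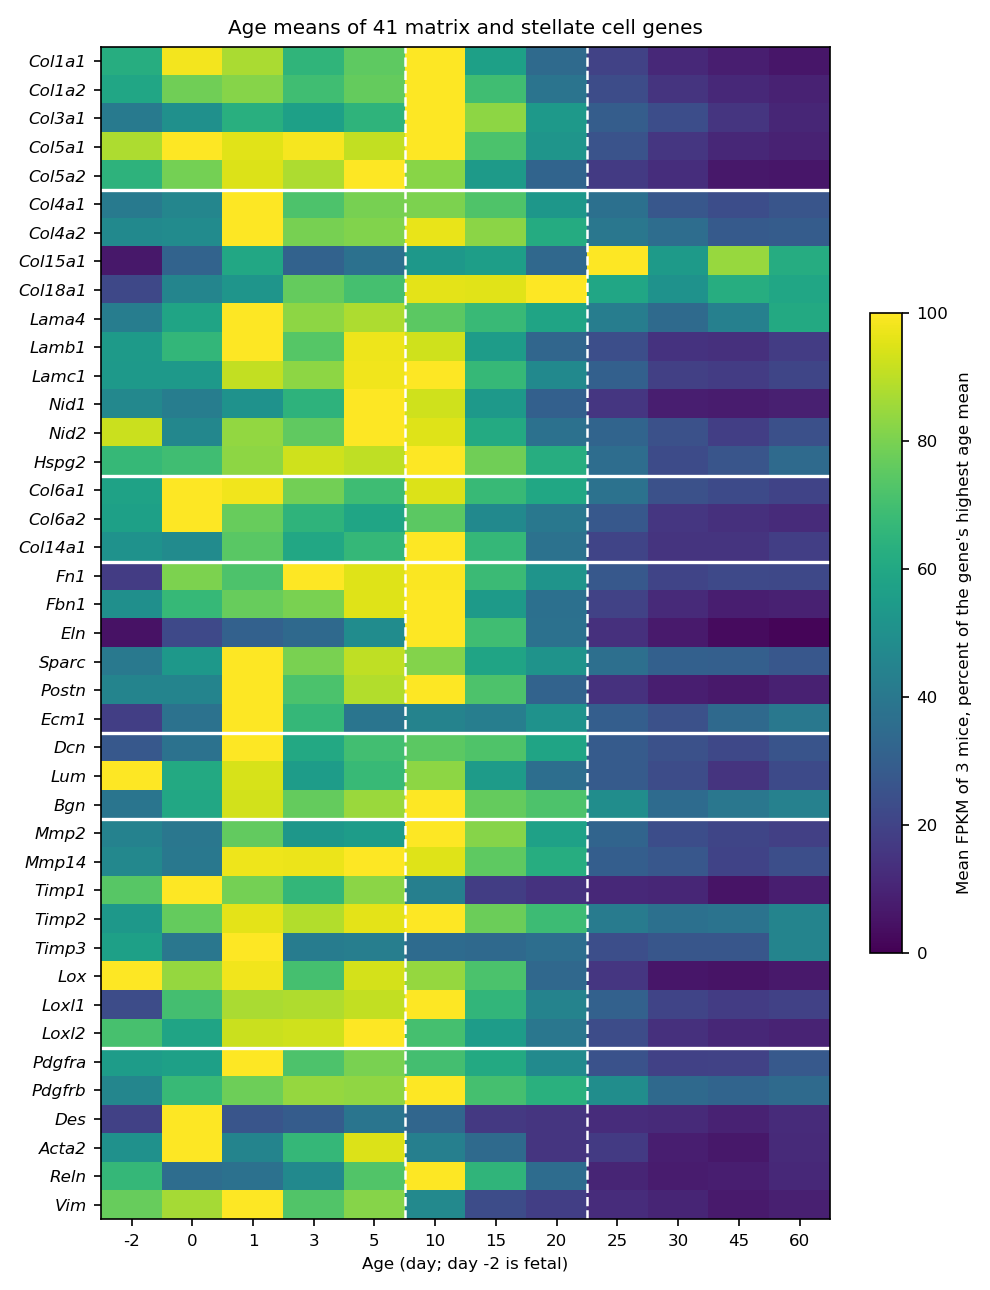
Mean FPKM at each of the 12 ages, as a percent of each gene's own highest age mean, for the 41 genes grouped by role (white lines, from top: fibrillar collagens, basement membrane, collagens VI and XIV, glycoproteins and elastic fibres, small leucine-rich proteoglycans, remodelling, stellate and mesenchymal genes); dashed lines separate Day -2 to Day 5, Days 10 to 20 and Days 25 to 60. Most rows are bright between Day 0 and Day 15 and dark from Day 25, while Col15a1 is brightest at Day 25 and Col18a1 at Day 20.

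Ages were grouped into Day -2 to Day 5, Days 10 to 20 and Days 25 to 60, the groups that clustering of energy metabolism genes gave in the study of these mice, to ask how the matrix genes differed between these ages. Of the 41 genes, 40 could be tested, since Lox stayed under 1 FPKM at every age. On the log2(FPKM + 1) scale, 38 of 40 were higher at Day -2 to Day 5 than at Days 25 to 60 and 1, Col15a1, was lower (limma, Benjamini-Hochberg adjusted p under 0.05 over all tested genes). Over all tested genes 70.2% were higher and 15.5% were lower in the same comparison. The median log2 fold change was 1.19 for the members and 0.54 for all tested genes. Col18a1 did not pass (log2 fold change -0.21 ± 0.11 (SE), limma adjusted p = 0.072). Among the 30 members whose mean reached 1 FPKM in both age groups, which did not owe their place in the test to a single group, 29 were higher early, against 63.6% of all such genes. A further 7 members reached 1 FPKM only in the early group, 1 only in the late group, and 2 in neither.

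The choice of scaling moved the centre of all genes and with it some of these calls. Over all tested genes the median fold change (log2) was 0.14 in place of 0.54 with upper quartile scaling and -0.02 with quantile normalization. With upper quartile scaling 34 members were higher early and 2 were lower, against 46.8% and 32% of all tested genes, and the median member stood at 0.81. Under that scaling Lama4, Bgn and Timp3 no longer passed, Col18a1 passed as lower (-0.84), and the sign of Ecm1 turned (-0.12, not passed). With quantile normalization 31 members were higher and 3 lower, against 37.7% and 40.7%, and the signs of Lama4, Ecm1, Timp3, Pdgfra and Pdgfrb turned. The mean of every age from Day -2 to Day 5 lay above that of every age from Day 25 to Day 60 for 29 of the 40 genes, against 51.5% of all tested genes, and for 17 with quantile normalization, against 24.3%.

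**Figure D2:**
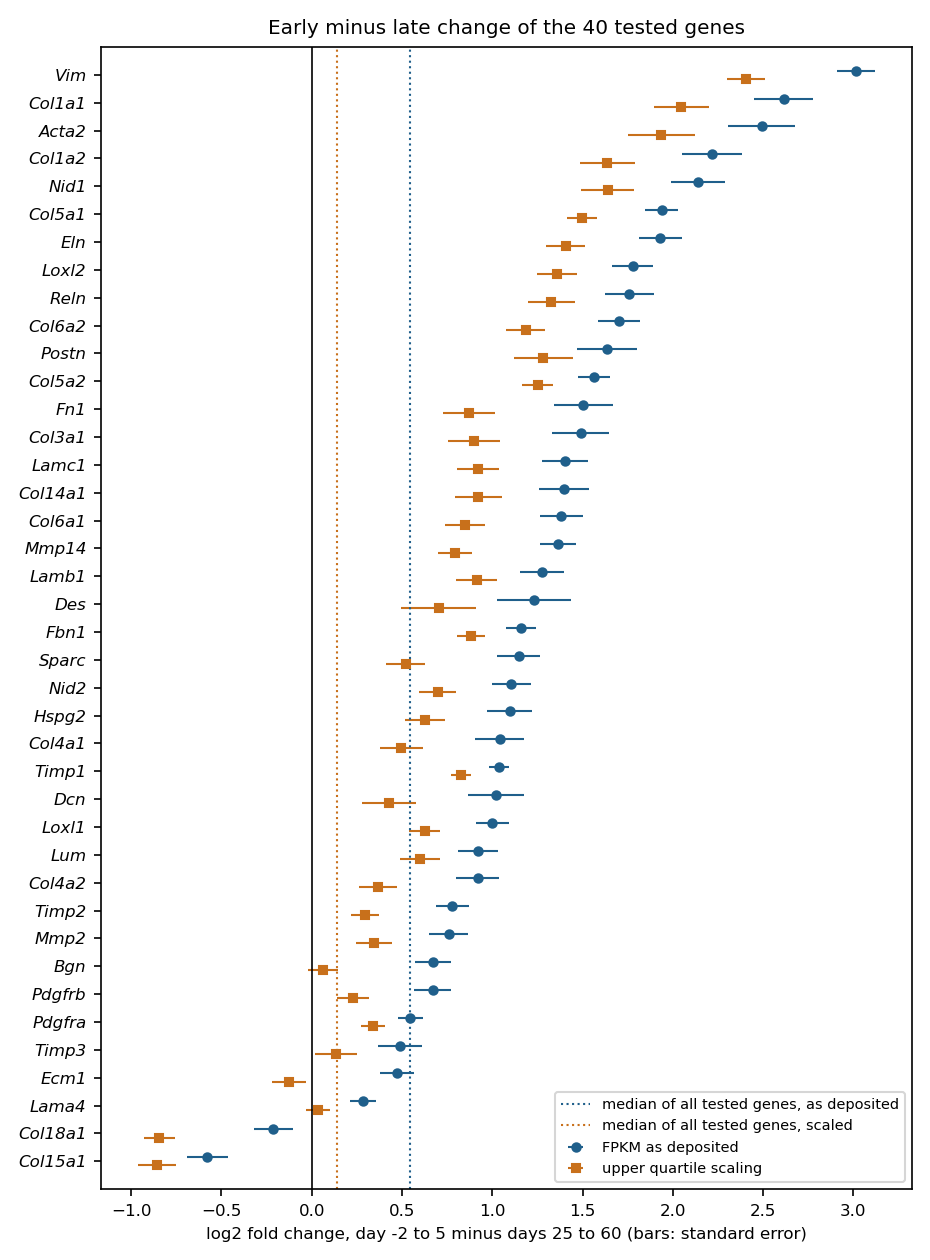
Log2 fold change of Day -2 to Day 5 minus Days 25 to 60 for the 40 tested genes, with FPKM as deposited (circles) and after upper quartile scaling (squares); bars are standard errors and dotted lines the medians of all 11149 tested genes. Vim, Col1a1 and Acta2 lie farthest to the right under both scalings, and Col18a1 and Col15a1 are left of 0.

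Days 10 to 20 were higher than Days 25 to 60 for nearly all of these genes, while fewer passed in the comparison with Day -2 to Day 5. At Days 10 to 20, 38 of 40 genes were higher than at Days 25 to 60, against 44.9% of all tested genes, with a median log2 fold change of 1.13 against 0.19. Upper quartile scaling also gave 38 higher genes, against 37.4% of all tested genes, and quantile normalization 35, against 26%. Timp3 did not pass (0.12 ± 0.14), and Col15a1 was lower (-0.32 ± 0.13, limma adjusted p = 0.039), a call that was lost when any of 14 of the 36 mice was left out (12.4% of all tested genes were lower). Between Day -2 to Day 5 and Days 10 to 20, 11 genes were higher early (Col5a1, Col5a2, Lamb1, Col6a2, Lum, Timp1, Timp3, Loxl2, Des, Acta2 and Vim) and 5 were lower early (Col3a1, Col18a1, Eln, Bgn and Mmp2). All tested genes gave 61.2% higher and 14.6% lower in that comparison. This split turned with the scaling, to 3 higher early (Timp1, Acta2 and Vim) and 22 lower under upper quartile scaling, against 35.1% and 31.7% of all tested genes. Quantile normalization gave 3 and 24 (33.4% and 35.8%), and conversion to TPM, which gives each library the same total, gave 6 and 7 (54.4% and 16.5%). Timp1, Acta2 and Vim were higher before Day 10, and Col3a1, Col18a1, Eln, Bgn and Mmp2 higher at Days 10 to 20, with both the deposited values and upper quartile scaling.

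Compared with Day 60 one age at a time, the genes stayed high until Day 15 and few differed from Day 60 by Day 25. At Day -2, 29 of 40 genes differed from Day 60 (26 higher and 3, Col15a1, Col18a1 and Ecm1, lower), against 75.1% of all tested genes. At Day 0 there were 31 (63.9% of all tested genes), at Day 1 and at Day 3 36 each (65% and 66%), and at Day 5 35 (65.4%), all higher. At Day 10, 36 genes were higher than at Day 60, although only 46% of all tested genes still differed. At Day 15 33 genes were higher (27.4% of all tested genes differed), and at Day 20 24 (15.9%). At Day 25, 5 genes were still higher (Col1a1, Col3a1, Col5a1, Col6a2 and Eln, against 7.42%). At Day 30 only Eln was (3.56%), by 1.62 ± 0.25 on the log2 scale. At Day 45 no gene passed with limma (0.233% of all tested genes did), and 1, Eln, had an unadjusted p under 0.05. Over all 11 ages together 39 of 40 genes differed from Day 60 at least once, against 90.7% of all tested genes, and Lama4 did not. With Dunnett's comparison in place of limma, 38 of 40 differed at some age, against 82.5% of all tested genes.

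**Figure D3:**
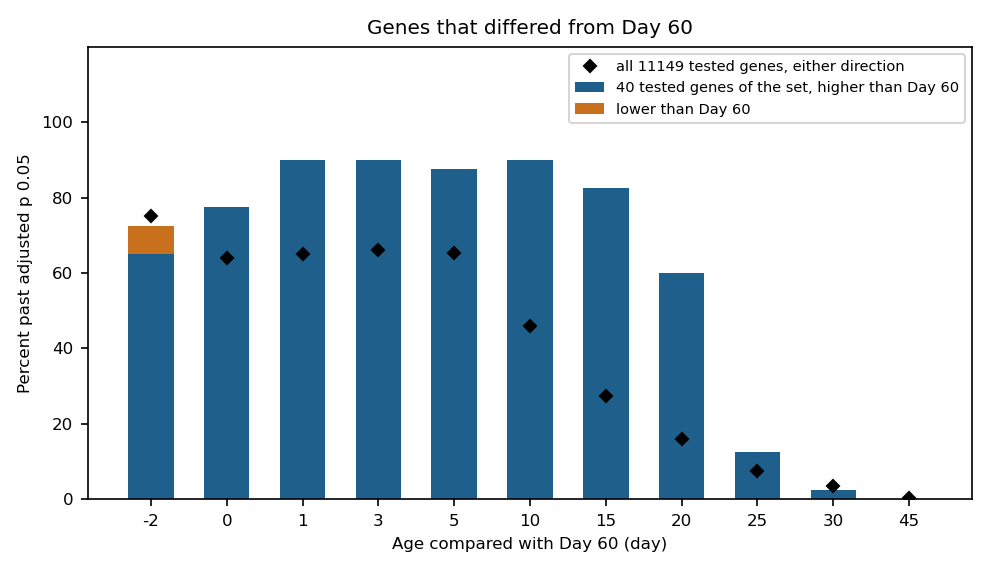
Percent of the 40 tested genes of the set that were higher (blue) or lower (orange) than at Day 60 at each earlier age, with the percent of all 11149 tested genes that differed in either direction (diamonds). The bars stand near the diamonds at Day -2 and far above them at Days 10, 15 and 20.

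The count at Day 25 rested on single mice. It was 8 without Day 25 mouse 2, 2 without Day 25 mouse 1 or Day 60 mouse 1, and 1 without Day 25 mouse 3 or Day 60 mouse 2. At Day 30, 2 genes in place of 1 differed without Day 0 mouse 3, Day 5 mouse 3, Day 15 mouse 1, Day 30 mouse 1 or Day 30 mouse 2. Some libraries held pancreatic mRNA. The sum of 8 pancreatic acinar genes was 7426 FPKM in Day 20 mouse 2, 5000 in Day 45 mouse 1 and 21291 in Day 60 mouse 1, against 4.69 to 10.4 in the other mice of these ages. Without these 3 libraries, 15 genes in place of 24 differed from Day 60 at Day 20, and 2 did at Day 25. The sum also reached 5031 FPKM in Day 0 mouse 3 and 5135 in Day 15 mouse 3, and 14 genes differed at Day 20 when these were left out as well. Each remaining library was at 1353 FPKM or less, but lower sums were common before weaning. The median sum per mouse was 634 FPKM at Day -2 to Day 5, 422 at Days 10 to 20 and 10.1 at Days 25 to 60. Pancreatic mRNA therefore varied with age as the members did, and its part in their changes was not tested. Long genes read low in some libraries: each doubling of exon length went with -0.161 (log2) in Day 30 mouse 1, -0.138 in Day 25 mouse 2 and -0.0954 in Day 45 mouse 3, after the mean of their age was taken off, whereas the other libraries ranged from -0.0945 (Day 1 mouse 3) to 0.135. The 3 libraries named first are all of Days 25 to 60. Day 1 mouse 3, close to Day 45 mouse 3, was kept, so leaving the 3 out acts on the late ages only. The members are long genes, with a median exon length of 6456 bases against 3427 for all tested genes. Without these 3 libraries, 38 members were higher and 2 lower (Col15a1 and Col18a1) at Day -2 to Day 5 than at Days 25 to 60. Over all 11159 genes tested without them, 7519 were higher and 1895 lower. At Day 25, 9 members differed from Day 60. For the counts against Day 60 with libraries left out, the share of all tested genes is not given. Whether the members moved more than other genes there was not tested.

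The fibrillar collagens, which form the load-bearing fibres of the matrix, were high from the fetal liver to Day 15 and then fell steeply. Col1a1, which encodes the alpha 1 chain of type I collagen, was 31.1, 28.7 and 23.2 FPKM in the 3 mice of Day -2, 51.7, 48.9 and 32.8 at Day 10, and 3.04, 1.82 and 3.05 at Day 60. Each Day -2 and Day 10 mouse was above each Day 60 mouse, and the age means differed 16.8-fold between Day 10 (44.4 ± 10.2 FPKM, SD, n = 3) and Day 60 (2.64 ± 0.709). Col3a1, the single chain of type III collagen, was 25.5, 18 and 18.9 FPKM at Day -2, 63.9, 47.3 and 40.1 at Day 10, and 5.10, 4.43 and 6.75 at Day 60. Its Day 10 mice lay above all Day -2 mice and those above all Day 60 mice, and it was 9.29-fold higher at Day 10 than at Day 60. From Day -2 to Day 5 to Days 25 to 60, Col1a1 differed by 2.61 ± 0.16 and Col3a1 by 1.49 ± 0.16 on the log2 scale (limma adjusted p = 5.9e-15 and 8.74e-10). Col1a2, the partner chain of type I collagen, had the same highest and lowest ages, with age means from 44.9 ± 9.57 FPKM at Day 10 to 4.27 ± 0.423 at Day 60. Col5a1 and Col5a2, chains of the type V collagen that nucleates fibrils, were lower throughout, with highest age means of 7.62 and 3.69 FPKM, and were 10.3-fold and 16-fold lower at Day 60. Day 25 mouse 2, Day 30 mouse 1 and Day 45 mouse 3, whose long genes read low, were each the lowest mouse of their age for all 5 fibrillar collagens.

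The balance between type III and type I collagen changed with age. The ratio of Col3a1 to Col1a1 FPKM in the same mouse was 0.538, 0.678 and 0.552 at Day 0, 1.24, 0.968 and 1.22 at Day 10, and 1.68, 2.43 and 2.21 at Day 60. All 3 mice at Day 0 were below 1 and all 3 at Day 60 above it, with age means from 0.589 at Day 0 to 2.25 at Day 30. A ratio within a mouse does not depend on the scaling of its library, but it shows unequal change only, and it was looked at after the values of both genes had been seen, so no test is given. The age means of Col4a1 to Col4a2 ran from 0.825 to 1.09, and those of Col6a1 to Col6a2 from 0.872 to 1.42. Col1a1 to Col1a2 ran from 0.612 to 1.24.

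**Figure D4:**
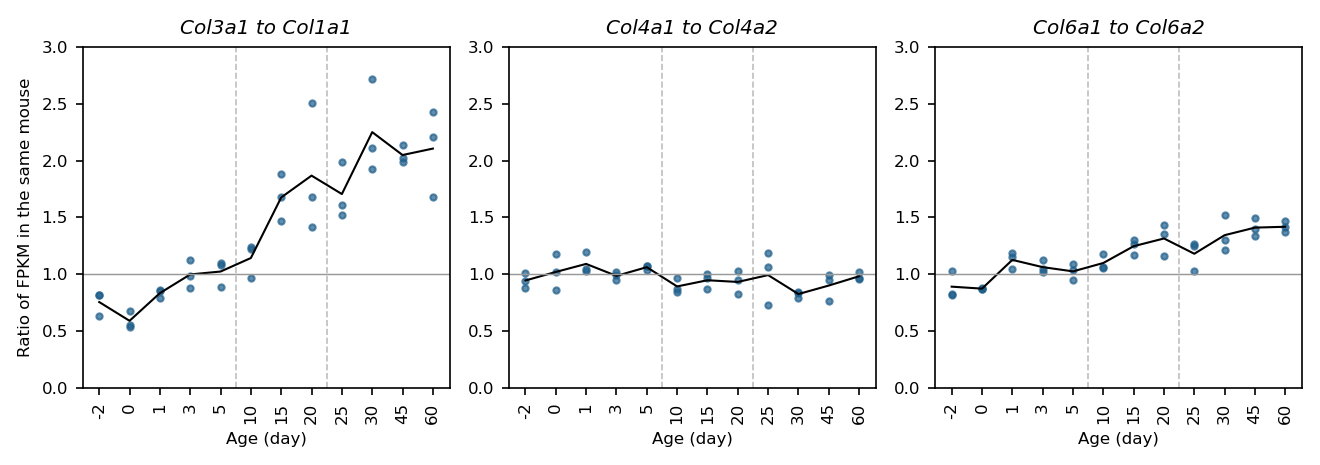
Ratio of FPKM within each mouse (points) and the mean of 3 mice per age (line) for Col3a1 to Col1a1, Col4a1 to Col4a2 and Col6a1 to Col6a2. The first ratio climbs from below 1 to about 2, the second stays near 1 at every age, and the third drifts from below 1 to 1.42.

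Of the 10 basement membrane genes, 8 were higher early than late, 1 was lower and 1 did not pass. Over all tested genes 70.2% were higher and 15.5% lower. Lama4, among the 8, did not pass with upper quartile scaling (0.04) and its sign turned with quantile normalization (-0.27). Nid1, encoding nidogen, which links laminin to type IV collagen, had the largest log2 fold change of these genes between Day -2 to Day 5 and Days 25 to 60. It was 14.7, 8.43 and 8.15 FPKM at Day -2, 26.4, 19.2 and 21.6 at Day 5, and 1.84, 2.05 and 2.13 at Day 60. The Day 5 mice lay above all others of these ages and the Day 60 mice below, an 11.2-fold difference in mean between Day 5 and Day 60. Its relative Nid2 was 4.66 FPKM at Day 5 and 1.13 at Day 60, and the laminin chains Lamb1 and Lamc1 were highest at Day 1 and Day 10 and fell 5.58-fold and 4.83-fold to Day 60. The highest Lamb1 mean rested on Day 1 mouse 2 (7.94 FPKM, against 2.87 and 2.13 in the other Day 1 mice). That mouse was also the highest of its age for Col15a1, Col4a1, Lama4 and Acta2, and for the summed FPKM of each role group of the set. Basement membrane genes summed to 203 FPKM in it, against 162 and 122 in the other Day 1 mice. The sum of 6 cholangiocyte markers was 41.5 FPKM there, against 17.8 and 19.7. Sums of sinusoidal endothelial and Kupffer cell markers were highest in Day 1 mouse 1. Hspg2, the heparan sulfate proteoglycan perlecan, changed 2.91-fold between Day 10 and Day 60, and Lama4 1.65-fold between Day 1 and Day 60.

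Col18a1 and Col15a1, which encode the related multiplexin collagens XVIII and XV, did not share this course. Col18a1, the source of endostatin and a collagen made by hepatocytes, had the highest mean of the 12 collagen genes of the set at every age, at 41.7, 39.3 and 38.2 FPKM at Day -2, 172, 154 and 223 at Day 20, and 109, 106 and 110 at Day 60. The 3 ages did not overlap, Day -2 being lowest and Day 20 highest, and the mean at Day 20 (183 ± 35.6 FPKM) was 1.69-fold that at Day 60. Its lowest mouse after weaning was Day 30 mouse 1, at 47.1 FPKM against 121 and 112 in the others, and without that library it passed as lower at Day -2 to Day 5 than at Days 25 to 60 (-0.32, limma adjusted p = 0.000734). Col15a1 was 0.112, 0.0916 and 0.131 FPKM at Day -2 and reached 2.24, 1.03 and 1.98 FPKM at Day 25 and 1.37, 1.15 and 0.726 at Day 60. Every Day 25 and Day 60 mouse was above every Day -2 mouse, and Col15a1 was lower early than late by 0.58 ± 0.11 on the log2 scale (limma adjusted p = 3.41e-05). It was the member whose mean reached 1 FPKM only in the late group.

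Col4a1 and Col4a2, the chains of the ubiquitous type IV collagen network, are transcribed away from each other from adjoining starts on chromosome 8 and gave nearly equal values. On the mouse assembly of the deposited data (NCBI37, mm9) Col4a1 spans chr8:11198423-11312826 on the minus strand and Col4a2 spans chr8:11312805-11449287 on the plus strand, so the first exons overlap by 22 bases. Their promoters, from 250 bases before to 50 bases after the start as given by RefSeq on GRCm38.p6, share 78 bases and are shown because the adjoining genes gave nearly equal values. They lie at chr8:11312777-11313076 (Col4a1, minus strand) and chr8:11312555-11312854 (Col4a2, plus strand). Capitals mark CCAAT and GGGCGG on either strand (read as ATTGG and CCGCCC where the match is on the other strand; no matches overlap), 5′ to 3′ along each gene.
Col4a1: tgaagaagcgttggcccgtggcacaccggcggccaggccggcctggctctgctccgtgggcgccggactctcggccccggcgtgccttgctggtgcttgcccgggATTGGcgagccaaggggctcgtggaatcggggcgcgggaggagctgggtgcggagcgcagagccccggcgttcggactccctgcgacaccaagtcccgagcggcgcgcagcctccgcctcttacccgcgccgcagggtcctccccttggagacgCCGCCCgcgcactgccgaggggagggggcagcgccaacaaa
Col4a2: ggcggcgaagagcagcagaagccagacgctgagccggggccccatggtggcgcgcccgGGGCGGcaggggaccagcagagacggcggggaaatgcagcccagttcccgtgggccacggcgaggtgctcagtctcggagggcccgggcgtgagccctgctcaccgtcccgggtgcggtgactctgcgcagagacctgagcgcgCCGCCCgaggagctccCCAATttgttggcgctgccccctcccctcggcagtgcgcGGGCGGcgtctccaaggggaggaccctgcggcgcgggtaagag
Of all 32851 promoters in the table, 37.4% held CCAAT and 35.7% held GGGCGG on either strand. Among the 26 member genes with a promoter there, 11 held CCAAT, 18 held GGGCGG and 4 held TATAAA (13.6% of all promoters), a description of letters and not of bound factors. In the 3 mice of Day -2, Col4a1 was 8.22, 6.10 and 5.42 FPKM and Col4a2 8.73, 6.03 and 6.17. At Day 1 Col4a1 was 15.3, 22.8 and 9.64 FPKM and Col4a2 12.8, 21.8 and 9.38, and at Day 60 the means were 4.18 ± 0.198 and 4.27 ± 0.301. Mouse 2 was highest and mouse 3 lowest for both genes at Day 1, and the values of that age spread widely. The overlapping first exons cannot be separated without strand information, but they are 22 of 6818 and 6619 exon bases.

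Type VI collagen forms beaded filaments around cells, and its alpha 1 and alpha 2 chains had their highest age means at birth. Col6a1 was 9.10, 7.01 and 7.85 FPKM at Day -2, 18.5, 12.1 and 11 at Day 0, and 2.92, 2.34 and 3.15 at Day 60. Col6a2 was 8.86, 8.53 and 9.58 FPKM at Day -2, 21.3, 13.8 and 12.5 at Day 0, and 2.13, 1.66 and 2.15 at Day 60. For both genes the Day 0 mice were above all Day -2 mice and the Day 60 mice below them, and the means at Day 0 were 4.93-fold and 8.02-fold those at Day 60. Day 0 mouse 1, the highest for both, also held skeletal muscle mRNA. Without it the Day 0 mean of Col6a1 was 11.5 FPKM, under those of Day 1 (13.5) and Day 10 (13.1), and that of Col6a2 was 13.1, still above Day 1 (12.2) and Day 10 (11.9). Both were read on the same strand of chromosome 10, 85161 bases apart with no protein-coding gene between them. Col14a1, a fibril-associated collagen, was highest at Day 10 (11.4 ± 3.83 FPKM) and lower by 5.35-fold at Day 60.

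Among the glycoproteins and elastic fibre genes, Fn1 was the most abundant and Eln differed by the largest fold between its highest age and Day 60 of all 41 genes. Eln encodes elastin, the elastic core of vessel walls. It was 3.78, 2.34 and 3.63 FPKM at Day -2, 73.7, 72.0 and 59.7 at Day 10, and 0.819, 0.653 and 1.18 at Day 60. The groups did not overlap, and the mean rose from 3.25 ± 0.796 to 68.5 ± 7.63 and then fell 77.4-fold to 0.885 ± 0.271. Eln differed by 3.38 ± 0.13 (log2) between Days 10 to 20 and Days 25 to 60 (limma adjusted p = 1.48e-18). Fbn1, the microfibril protein on which elastin is laid down, changed 11-fold between Day 10 (2.74 ± 0.606 FPKM) and Day 60 (0.250 ± 0.0649), and 2442 of its 12128 exon bases are shared with an opposite-strand gene, whose reads cannot be told apart. The ratio of Eln to Fbn1 ran from 2.56 to 31.8 over the age means.

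Fn1, fibronectin, which hepatocytes also secrete into plasma, was 96.6, 63.9 and 60.6 FPKM at Day -2, 434, 404 and 397 at Day 3, and 99.5, 93.5 and 76.9 at Day 60. The Day 3 mice lay far above the other two ages, which overlapped. Sparc, a matricellular glycoprotein, had a highest mean of 119 ± 21.3 FPKM at Day 1 and 32.5 ± 7.36 at Day 60. Postn, periostin, was lower than Sparc at each of these ages but changed more, from 6.14 ± 1.18 FPKM at Day 1 to 0.554 ± 0.0624 at Day 60. Ecm1 was highest on Day 1 as well (37.3, 41.5 and 48.0 FPKM), when all 3 mice were above every Day -2 mouse (6.77, 7.99 and 8.88) and every Day 60 mouse (14.1, 19.8 and 16.9). Its Day 60 mice lay above its Day -2 mice, which held for none of the other 5 genes of this group.

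**Figure D5:**
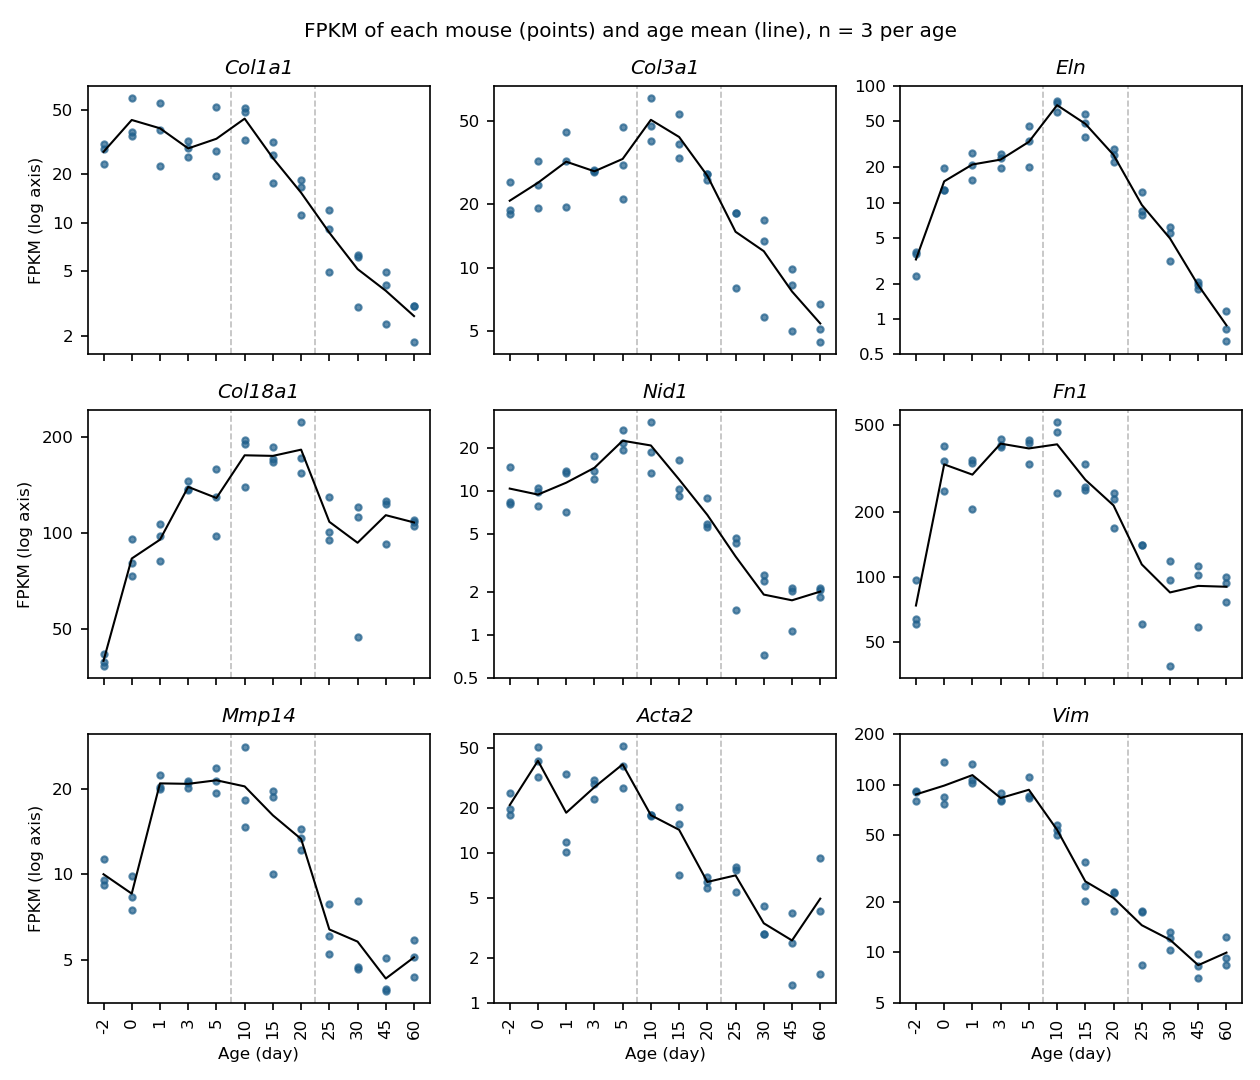
FPKM of each mouse (points, log axis) and age mean (line) at the 12 ages for 9 genes; dashed lines separate the 3 age groups. Eln climbs from 3.25 to 68.5 FPKM by Day 10 and drops to 0.885, Fn1 and Col18a1 rise at birth, Mmp14 rises at Day 1, and Vim falls from Day 5.

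The small leucine-rich proteoglycans, which bind collagen fibrils and limit their width, were less uniform. Bgn, biglycan, was 23.9, 15.8 and 13.9 FPKM at Day -2, 54.2, 44.7 and 38.9 at Day 10, and 18.8, 21.6 and 20.1 at Day 60. The Day 10 mice lay above both other ages, which overlapped. Dcn, decorin, was 13.2, 9.84 and 10.7 FPKM at Day -2, 43.5, 38.7 and 40.4 at Day 1, and 9.08, 13.7 and 8.92 at Day 60, so that its fetal and adult mice overlapped too and the Day 1 mice stood apart. Lum, lumican, was highest before birth, at 2.86 ± 0.192 FPKM, and fell to 0.640 ± 0.172 at Day 60. Dcn and Lum are neighbours on chromosome 10, 47357 bases apart on one strand with no protein-coding gene between them, and differed in the age of their highest mean.

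All 7 tested matrix-remodelling genes were higher early than late, against 70.2% of all tested genes. Their median log2 fold change was 1.00, against 0.54 for all tested genes. With upper quartile scaling Timp3 did not pass. With quantile normalization Mmp2 (0.08) and Timp2 (0.07) did not pass and the sign of Timp3 turned (-0.15). Mmp14, a membrane-bound collagenase that also activates Mmp2, was 11.3, 9.52 and 9.16 FPKM at Day -2, 23.7, 19.2 and 21.2 at Day 5, and 5.10, 5.87 and 4.36 at Day 60. The 3 ages did not overlap, and the Day 5 mean was 4.19-fold that at Day 60. Mmp2, gelatinase A, had its highest mean at Day 10 (5.78 ± 1.68 FPKM, against 1.10 ± 0.157 at Day 60). Of the collagen and elastin cross-linking enzymes, Loxl2 was 6.56, 4.5 and 4.31 FPKM at Day -2, 7.5, 5.73 and 8.44 at Day 5, and 0.668, 0.754 and 0.710 at Day 60. Its early mice were all above the adult ones, and it differed by 1.78 ± 0.12 on the log2 scale from Day -2 to Day 5 to Days 25 to 60. Loxl1 was highest at Day 10 (4.39 ± 0.158 FPKM) and fell 5.19-fold. Lox itself never reached a mean of 1 FPKM, with 0.664 ± 0.395 FPKM at Day -2 and 0.0449 ± 0.0311 at Day 60. At Day 60 its lowest mouse corresponded to about 7.59 fragments.

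The inhibitors of matrix metalloproteinases followed 3 different courses. Timp1 was 1.31, 1.28 and 1.22 FPKM at Day -2 and 2.39, 1.32 and 1.44 at Day 0, and only 0.0909, 0.137 and 0.196 at Day 60, where its lowest mouse rested on about 6.16 fragments. Timp2 was highest at Day 10 (6.15 ± 1.12 FPKM) and was 2.77 ± 0.0869 at Day 60. Timp3 peaked at Day 1 (3.74 ± 0.79 FPKM) and its Day 60 mice (1.70, 1.90 and 1.47) overlapped those of Day -2 (3.37, 1.52 and 1.48). It shares 1733 of its 8144 exon bases with Syn3 on the opposite strand, and the sequencing kit did not mark strand. The ratio of Timp2 to Timp1 ran from 2.57 to 27.2 over the age means.

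Of the stellate and mesenchymal genes, all 6 were higher early than late, against 70.2% of all tested genes. With quantile normalization the signs of Pdgfra (-0.00095) and Pdgfrb (-0.040) turned, and neither passed. Vim had the largest log2 fold change of all tested members. Vim, vimentin, an intermediate filament of mesenchymal, endothelial and blood cells, was 92.2, 90.3 and 80.5 FPKM at Day -2, 107, 134 and 102 at Day 1, and 9.19, 8.36 and 12.3 at Day 60. The early mice lay far above the adult ones, and Vim differed by 3.01 ± 0.11 on the log2 scale from Day -2 to Day 5 to Days 25 to 60 (limma adjusted p = 4.99e-21). Acta2, smooth muscle actin, which marks vessel walls and activated stellate cells, had its highest mean at Day 0 (50.8, 32.2 and 41 FPKM) and varied widely in adults (9.22, 1.57 and 4.09 at Day 60). Without Day 0 mouse 1 the Day 0 mean was 36.6 FPKM, under the 39.1 of Day 5. Reln, reelin, made in liver by stellate cells, had its highest mean at Day 10 (16.6, 13.7 and 7.96 FPKM) and fell to 1.29, 1.71 and 1.36 at Day 60. The receptors for platelet-derived growth factor were low, Pdgfra at 1.22 ± 0.407 FPKM on Day 1 and 0.341 ± 0.0717 at Day 60, and Pdgfrb at 4.85 ± 1.00 on Day 10 and 1.67 ± 0.247 at Day 60. Pdgfrb exceeded Pdgfra at every age, by 3.13-fold to 8.02-fold in the age means.

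Des, the muscle-type intermediate filament desmin that stellate cells also contain in rodents, had its highest value in a single library. It was 69.8 FPKM in Day 0 mouse 1 and 6.09 and 8.12 in the other Day 0 mice. That library also held skeletal muscle mRNA: the sum of 10 skeletal muscle genes was 1325 FPKM there, against 5.53 and 5.34 in the other Day 0 mice, and 92.7 in Day 10 mouse 1. Without Day 0 mouse 1, Des stayed higher at Day -2 to Day 5 than at Days 25 to 60, by 1.02 in place of 1.23 on the log2 scale (limma adjusted p = 1.29e-11).

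Birth was accompanied by a rise of some matrix genes at a time when most changed genes of the liver fell. From Day -2 to Day 0, 10 of 40 genes rose and 3 fell (Nid2, Reln and Lum), whereas 13.1% of all tested genes rose and 41.4% fell. Fn1 rose most, by 2.15 ± 0.35 on the log2 scale (limma adjusted p = 9.91e-06), from 73.7 to 330 FPKM. Over the same days the summed FPKM of 7 hepatocyte markers went from a mean of 8561 to 59609, and their part in the rise of Fn1 and Col18a1 was not tested. Eln rose by 1.92, Des by 1.37, Col18a1 by 1.04, Loxl1 by 1.00, Acta2 by 0.94, Ecm1 by 0.90, Col6a2 by 0.72, Col6a1 by 0.69 and Bgn by 0.62. Without the Day 0 library that held muscle mRNA, 6 of 40 genes rose, against 11.9% of all tested genes. They were Fn1, Eln, Col18a1, Loxl1, Ecm1 and Bgn. The others of the 10 did not pass, and Des stood at 0.33 ± 0.20 (limma adjusted p = 0.179) in place of 1.37. Without Day -2 mouse 1 or Day 0 mouse 3 no gene fell. Under upper quartile scaling 16 rose and 0 fell by limma, against 20.1% and 26% of all tested genes, and under quantile normalization 17 rose and 1 fell, against 21.8% and 29.5%.

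In the first day after birth Dcn, Ecm1 and Mmp14 rose most. From Day 0 to Day 1, 11 of 40 genes rose, against 23.7% of all tested genes, and 1 fell, Acta2 (by 1.28 on the log2 scale, against 7.88%). Dcn rose by 1.51 ± 0.33 (limma adjusted p = 0.000941), from 15.5 ± 9.57 to 40.9 ± 2.42 FPKM, followed by Ecm1 (1.38), Mmp14 (1.2), Postn (1.06), Col4a1 (0.99), Sparc (0.94), Timp3 (0.94), Col4a2 (0.89), Mmp2 (0.69), Bgn (0.60) and Pdgfra (0.40). Ecm1 and Bgn rose in both steps with the deposited values, and with upper quartile scaling Bgn did not pass in the second (limma adjusted p = 0.0554). The share of members that rose was close to that of all tested genes, and the count fell to 7, 5 or 6 without Day 0 mouse 2, Day 0 mouse 3 or Day 1 mouse 2. The fall of Acta2 was lost without Day 1 mouse 1 or mouse 3, and 2 genes fell without Day 0 mouse 2 or mouse 3.

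From Day 20 to Day 25, the interval in which mice were weaned, 6 of 40 genes fell, against 3.26% of all tested genes, and 0 rose by limma (3.94%). These were Eln (by 1.35), Reln (1.29), Mmp14 (0.96), Col5a1 (0.77), Col18a1 (0.74) and Ecm1 (0.73). Eln was 25.8, 22.2 and 28.9 FPKM at Day 20 and 7.83, 8.52 and 12.3 at Day 25, so the mice of these ages did not overlap. Only Col15a1 had an unadjusted p under 0.05 for a rise, and with upper quartile scaling it passed (5.15% of all tested genes rose), beside 8 genes that fell (4.76%). Age means were lower at Day 25 than at Day 20 for 39 of the 41 genes. The median log2 fold change of this step was -0.563 for the tested members and -0.0651 for all tested genes. The decline had begun earlier, as 38 of 41 were already lower at Day 20 than at Day 10. For these counts of lower age means the share of all tested genes is not given. Without Day 20 mouse 3, 3 genes fell.

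Marker genes of several liver cell types, none of them in the list, also differed between these ages. The sum of 14 stellate cell markers was 61.1 to 119 FPKM in mice of Day -2 to Day 5, 66.3 to 121 at Days 10 to 20 and 24.7 to 56.2 at Days 25 to 60, with a highest age mean of 118 at Day 10. Of the 13 tested, 9 were higher early than late, Gfap most (2.14), while Vipr1 and Rgs5 were lower, beside the 70.2% and 15.5% of all tested genes. Lrat, the enzyme that esterifies retinol for storage (-0.05 ± 0.10), and Cygb (0.00 ± 0.09) did not pass. No marker was at 0 in all mice of an age group. The sum of 6 portal fibroblast markers was 12.4 to 29.1 FPKM early and 3.02 to 5.71 late, and that of 6 smooth muscle markers 15.5 to 45.7 and 4.39 to 11.3, without overlap. Blood cells moved further: 8 erythroid markers summed to 571 to 3962 FPKM in the early mice and 32.9 to 88.0 in the late ones. Sums of sinusoidal endothelial markers were 49.9 to 153 FPKM early and 70.3 to 89.5 late, and those of mesothelial markers 2.35 to 18.7 and 1.28 to 4.65. Kupffer cell markers summed to 81.1 to 215 FPKM early and 60.1 to 128 late, and cholangiocyte markers to 6.45 to 41.5 and 4.78 to 9.89. Hepatocyte markers ran from 8310 to 68267 FPKM early, 69283 to 103788 at Days 10 to 20 and 40615 to 66704 late. These sums held genes that went opposite ways. Of 7 hepatocyte markers 4 were lower early, 1 was higher (Ahsg, 1.02) and 2 did not pass. Of 8 sinusoidal endothelial markers 6 were higher early and 2 lower, and of 7 Kupffer cell markers 5 and 2. The part of these other cells in the changes of Vim and the remaining genes was not tested.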

How the data were processed

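The deposited table held FPKM values that the authors had made from poly-A selected TruSeq libraries read as paired ends, aligned with TopHat 1.2.0 to mm9 and quantified with Cufflinks 1.0.3, with no scaling between libraries named in the sources used here. The kit does not mark strand. Values were taken as log2(FPKM + 1), which understates changes of low genes. Genes whose mean reached 1 FPKM at some age (11149 of 21889) were fitted with limma 3.58.1 in R 4.3.3, 1 mean per age over all 36 mice with a mean-variance trend, and p-values were Benjamini-Hochberg adjusted over all tested genes. Summed FPKM per mouse were 353712 to 450597, and steps in low values gave relative library depths of 0.895 to 1.15, and fragment numbers in the text are estimates from these steps that cover counting error only. Replicate correlations were 0.952 to 0.997. Members and gene lists were chosen with earlier results of these data known. For each role group, values of every mouse are given for the most abundant gene, the one with the largest early-late change and any that passed against its group. Positions came from GENCODE on NCBI37. The fits were tested on simulated data. The value of 1 marker gene is not reported here.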

Additional observations from a re-analysis of the deposited data

How the results depend on the processing

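The 38 genes higher at Day -2 to Day 5 than at Days 25 to 60 numbered 38 whichever mouse was left out. Lower genes there numbered 1 to 2 with a mouse left out, 0 with a filter at 5 FPKM or on the mean of all mice, 2 with upper quartile scaling, TPM, the length trend removed or the 3 libraries with low long genes left out, and 3 with quantile normalization. The filters at 5 FPKM and on the mean of all mice tested 28 and 36 members. Both removed Col15a1 before testing, so their 0 does not bear on its call. Signs turned for Ecm1 (-0.12, upper quartile), and with quantile normalization for Lama4 (-0.27), Ecm1 (-0.0020), Timp3 (-0.15), Pdgfra (-0.00095) and Pdgfrb (-0.040). Genes with age means not overlapping numbered 17 with quantile normalization and 28 to 31 with a mouse left out.

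Day -2 to Day 5 over Days 10 to 20 gave 6 higher (5 FPKM, with 28 members tested, and TPM) or 3 (upper quartile, quantile). It gave 22 lower (upper quartile) or 24 (quantile). Leaving out mice gave 8 to 14 and 4 to 7. For Days 10 to 20 over Days 25 to 60, 0 were lower with a pseudocount of 0.1, no filter, either stricter filter (neither of which tested Col15a1) or the 3 or 5 pancreatic libraries left out (0 to 1 with a mouse left out). Day 0 over Day -2 gave 16 higher (upper quartile), 17 (quantile, length trend) or 6 (muscle libraries out), and 1 lower with a pseudocount of 0.1, no filter, 5 FPKM, TPM or quantile, 0 with upper quartile or 5 pancreatic libraries out (6 to 11 and 0 to 3 with a mouse left out). Day 1 over Day 0 gave 7 higher (upper quartile) or 3 (5 pancreatic libraries out), 3 lower (quantile), 2 (5 pancreatic libraries out) and 0 (muscle libraries out), with 5 to 15 and 0 to 2 over mice. Day 25 over Day 20 gave 1 higher with upper quartile, TPM, quantile, muscle or long-gene libraries out and the length trend removed, with 0 to 1 and 3 to 9 over mice.

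Against Day 60, Day 25 gave 8 (upper quartile, quantile, length trend), 2 (3 or 5 pancreatic libraries out) or 9 (long-gene libraries out), Day 30 gave 2 (upper quartile, long-gene libraries out) or 3 (length trend), and Day 20 gave 15 (3 pancreatic libraries out) or 14 (5 out). With a mouse left out, Day -2 gave 26 to 31, Day 0 26 to 34, Day 1 36 to 37, Day 3 34 to 37, Day 5 35, Day 10 33 to 36, Day 15 26 to 34, Day 20 18 to 25, Day 25 1 to 8, Day 30 1 to 2, Day 45 0, and any age 39 to 40. The cause of these shifts was not tested. Counts over all tested genes moved with the setting too. From Day -2 to Day 0, 1466 rose and 4617 fell with the deposited values. With upper quartile scaling these were 2238 and 2902, and with quantile normalization 2434 and 3284. For the other counts of this section the share of all tested genes is not given here. Whether the members moved more than other genes was not tested. The filter on all mice, the sets of libraries left out and the length trend were chosen after seeing the data.

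Correlations of deviations ran from -0.68 to 0.83 over 198 same-numbered pairs of mice. Their median was 0.126, against -0.0476 for pairs with other numbers. Whether a replicate number marks mice handled together was not tested. A replicate block gave 1 higher and 7 lower genes for Day 25 over Day 20 and moved no other count by over 1.5 times. Timp1 and Lox rested on as few as 5.16 and 4.56 estimated fragments in a mouse.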

Other observations

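Genes that make, bind or cut matrix, listed beside the 41 genes and sharing none of them, were taken through the same comparison of Day -2 to Day 5 with Days 25 to 60, in which 70.2% of all tested genes were higher early and 15.5% lower. Of 18 tested collagen maturation enzymes 14 were higher early and 1 was lower, with a median log2 fold change of 0.55, close to the 0.54 of all tested genes. Fkbp10, a chaperone of type I procollagen, differed most (2.27 ± 0.08, 8.64 FPKM early and 0.928 late), while Loxl4, a cross-linking enzyme, was lower early (-1.19 ± 0.09). Of 19 other matrix glycoproteins and proteoglycans 14 were higher and 4 lower early. Thbs1, thrombospondin 1, carried by platelets, was highest among these (3.00 ± 0.09), and Vtn, vitronectin, which hepatocytes secrete, was lower early (-1.22 ± 0.07).

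Of 10 tested matrix proteases and related genes 8 were higher early, led by the neutrophil gelatinase Mmp9 (2.95 ± 0.10), and 2 were lower, Mmp15 by more (-1.35 ± 0.10). All 3 tested genes among 21 other collagens and laminins were higher early, Lamb2 most (1.14 ± 0.08). In TGF beta and PDGF signalling 10 of 12 tested genes were higher and none was lower (limma; 2 did not pass), and Tgfb1 differed most, at 53.7 FPKM early against 6.32 late. Integrins and other matrix receptors split, with 9 of 14 higher and 3 lower early. Itgb3, the platelet integrin chain, was the most raised (3.1 ± 0.08), and the 3 lower genes were syndecans (Sdc1, -1.26 ± 0.11, and, named after their values were seen, Sdc2, -0.63 ± 0.12, and Sdc4, -0.80 ± 0.15). These lists were described by counts and medians, with no test of a list as a whole.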
